A study of Homo sapiens with 15 samples.

Results

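The lysyl oxidases LOX, LOXL1, LOXL2, LOXL3 and LOXL4 and the collagen lysyl hydroxylases PLOD1, PLOD2 and PLOD3 are 8 of the 61533 genes in a count table from HEK293T cells, a line of human embryonic kidney origin that takes up and expresses introduced DNA well. They were taken as families by name, and the pair of families was chosen by the measured LOXL4 counts, because LOXL4 was higher with rapamycin than with DMSO in both lines that carry YAP-MAML2. All 8 were among the 18391 genes that passed the filter on low counts. RNA-seq was made from 15 libraries of polyA RNA, 3 in each of 5 groups. YAP-MAML2 is a cancer fusion of the Hippo pathway coactivator YAP with the Notch coactivator MAML2, and it forms nuclear condensates. SPARK-OFF joins FKBP to the fusion and Frb to mCherry, so that rapamycin, which binds FKBP and Frb together, recruits mCherry and dissolves the condensates.

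The condensed group was YAP-MAML2_SPARK-OFF cells given DMSO for 5 h, and the diffuse group was the same cells given rapamycin for 5 h. The no-mCherry cells (YAP-MAML2_control) carry the tagged fusion without mCherry and also received DMSO or rapamycin for 5 h, which asks what rapamycin does when it has no mCherry to recruit. The paper reports that condensates of this control were not dissolved by rapamycin. Rapamycin is also an inhibitor of mTORC1. The eGFP control cells (baseline) carry eGFP and no fusion and were mock treated, so that DMSO, rapamycin and the fusion cannot be told apart in comparisons with them. The description of the no-mCherry libraries with DMSO names rapamycin, whereas their title and treatment name DMSO, and the title and treatment were followed. Whether the 3 libraries of a group came from separate cultures, and whether the lines are clones, is not given in the sources used here, so p-values measure the spread between these libraries, which may be technical.

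Libraries held 14720387 to 24797509 counts with a median of 17631701. The third no-mCherry library with DMSO stood apart from its group. Its mean correlation with the other libraries of the group was 0.987, against 0.990 to 0.993 for the remaining libraries. Calls of members and of list genes were also made without it, whereas the shares over all genes were not recomputed. MAML2, which reads both its own gene and the introduced fusion, was at 2.77 to 4.30 CPM (counts scaled to a common library total) in eGFP control cells, 199 to 237 and 230 to 261 CPM in no-mCherry cells with DMSO and rapamycin, 395 to 442 CPM in condensed cells and 504 to 563 CPM in diffuse cells. These ranges overlapped only between the 2 no-mCherry groups, so diffuse and condensed cells also differed in the level of the fusion mRNA. By Western blot and total fluorescence, the paper reports no change in YAP-MAML2 protein upon dissolution. The part of the mRNA difference in the results that follow was not tested. The summed level of 8 genes described for HEK293 cells (neurofilaments, kidney progenitor factors, CDH2 and VIM) was 480 to 522 CPM in eGFP control cells, 312 to 424 CPM in no-mCherry cells and 279 to 315 CPM in SPARK-OFF cells. These genes did not move together. The means of NEFL, NEFM, PAX2, EYA1, LHX1 and VIM were lower in SPARK-OFF than in eGFP control cells, and those of CDH2 and NEFH were higher. CDH2 was at 57.6 CPM in eGFP control, 64.2 CPM in condensed and 70.9 CPM in diffuse cells.

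The genes lie on 8 chromosomes of hg38. LOX (ENSG00000113083) is on chromosome 5 from 122063195 to 122078413, LOXL1 (ENSG00000129038) on chromosome 15 from 73925989 to 73952137, LOXL2 (ENSG00000134013) on chromosome 8 from 23296897 to 23425328, LOXL3 (ENSG00000115318) on chromosome 2 from 74532258 to 74555690 and LOXL4 (ENSG00000138131) on chromosome 10 from 98247690 to 98268194. PLOD1 (ENSG00000083444) is on chromosome 1 from 11934205 to 11975538, PLOD2 (ENSG00000152952) on chromosome 3 from 146035139 to 146163725 and PLOD3 (ENSG00000106397) on chromosome 7 from 101205977 to 101218420. LOXL1 and PLOD1 are on the plus strand and the other 6 on the minus strand.

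Lysyl oxidases are secreted, copper-dependent amine oxidases that turn lysine and hydroxylysine side chains of collagen and elastin into aldehydes, which then form the covalent cross-links between fibres. Lysyl hydroxylases act earlier, in the endoplasmic reticulum, where they add hydroxyl groups to lysines of procollagen. These hydroxylysines are the sites of collagen glycosylation and the source of the more stable cross-links. LOX and LOXL1 have a propeptide that is removed outside the cell, LOXL2, LOXL3 and LOXL4 carry scavenger receptor cysteine-rich domains, PLOD2 hydroxylates the collagen telopeptides, and PLOD3 also has glycosyltransferase activity. YAP reaches DNA through TEAD factors, and cross-linked, stiff matrix is a known input to YAP.

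RefSeq promoter windows on GRCh38.p14, from 250 bases before to 50 bases after a start, were at hand for 7 of the 8 genes, all but LOXL2. The letters GGAATG, bound by TEAD factors, were found on either strand in 14% of all 35116 windows, those of AP-1 (TGANTCA) in 7.71% and those of the E-box (CACGTG) in 7.26%. Among the windows of the 7 genes, only 1 of the 2 LOXL3 windows held any of the 3 motifs, with GGAATG at 118 and at 100 bases before the start. The window of LOXL4 held none, and its GC content of 85.3% was higher than that of 99.8% of all windows, whose median was 58.7%. A match or its absence describes the letters of these windows only. The 250 bases before the start of LOXL4 are shown because its counts are the ones that vary most among the 8 genes, and those of LOXL3 because they hold the TEAD letters, which are in capitals. Both read 5′ to 3′ along the minus strand, LOXL4 from chr10:98268195-98268444 and LOXL3 from chr2:74553943-74554192.
LOXL4: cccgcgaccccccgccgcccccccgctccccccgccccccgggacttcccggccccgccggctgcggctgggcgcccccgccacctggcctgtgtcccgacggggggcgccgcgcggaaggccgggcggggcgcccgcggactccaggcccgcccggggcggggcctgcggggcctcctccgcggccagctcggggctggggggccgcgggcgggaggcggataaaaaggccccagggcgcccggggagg
LOXL3: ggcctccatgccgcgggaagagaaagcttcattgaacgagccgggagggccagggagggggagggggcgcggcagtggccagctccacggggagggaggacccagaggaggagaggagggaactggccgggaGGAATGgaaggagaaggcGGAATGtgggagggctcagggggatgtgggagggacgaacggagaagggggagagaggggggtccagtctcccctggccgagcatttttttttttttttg

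Per kb of transcript, the hydroxylases were the abundant members and the oxidases were low in every group. Over the 15 libraries PLOD2 had a mean of 29.3 CPM per kb, PLOD1 of 22.5 and PLOD3 of 15.3. LOXL3 followed at 3.75 CPM per kb, LOX at 2.88, LOXL2 at 2.84, LOXL1 at 2.09 and LOXL4 at 1.43. The sum of the 5 oxidases was 11.5 to 13.98 CPM per kb as a group mean, against 64.7 to 72.2 for the sum of the 3 hydroxylases. Libraries of neighbours in this order overlapped for LOX and LOXL2 in 4 of the 5 groups, for LOXL3 and LOX in eGFP control cells and no-mCherry cells with DMSO, for PLOD2 and PLOD1 in eGFP control cells, for LOXL2, LOXL1 and LOXL4 as neighbours in no-mCherry cells with rapamycin, for LOX and LOXL1 in condensed cells, and for LOX and LOXL4 in diffuse cells, so these genes cannot be ranked there. The order also depends on the length used. Per kb of all annotated exons PLOD1 came before PLOD2 and PLOD3 in every group, and PLOD2, whose annotated exons span 14518 bases against 3749 in its canonical transcript, lay above PLOD3 in 3 groups and below it in eGFP control and diffuse cells. Per kb of canonical transcript LOXL4 had the lowest mean of the 8 in 4 groups, overlapping with LOXL1 in no-mCherry cells with rapamycin. In diffuse cells its mean of 2.58 ± 0.226 CPM per kb (SD, n = 3) was above that of LOXL1 (2.13 ± 0.334) and its libraries overlapped with those of LOX (2.71 ± 0.148). Per kb of all annotated exons the mean of LOXL4 was higher in the order, in diffuse cells at 2.58 above LOX (2.46), LOXL2 (1.89) and LOXL1 (1.37), and in no-mCherry cells with rapamycin at 1.74 above LOXL2 (1.72) and LOXL1 (1.43).

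**Figure D1:**
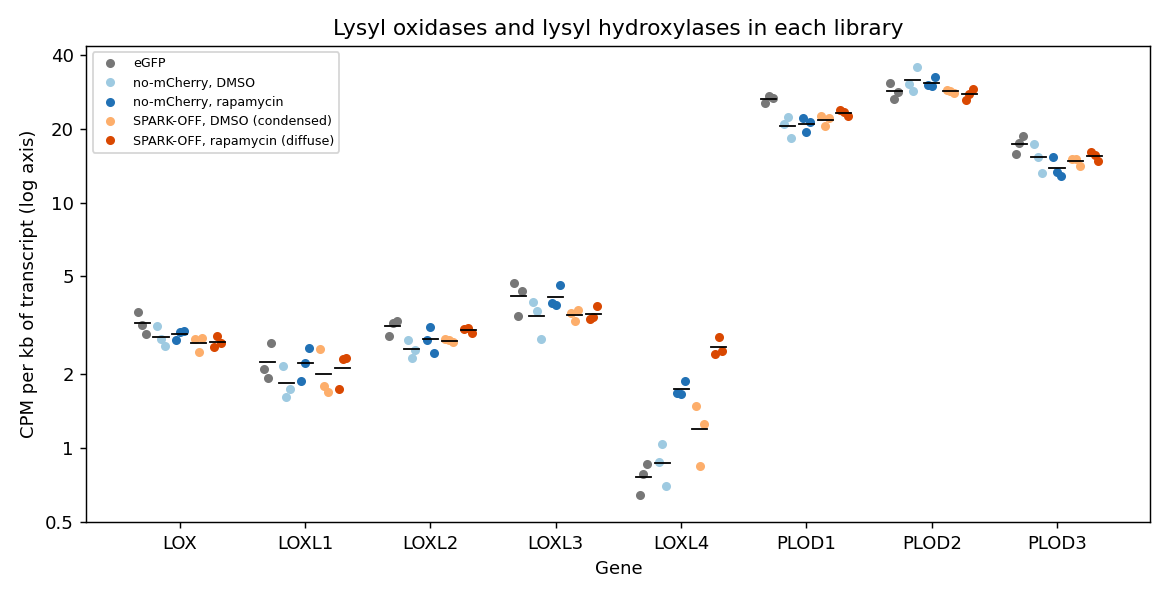
CPM per kb of the canonical transcript on a log axis for the 8 genes in each of the 15 libraries, points coloured by group, with a black line at the mean of each group of 3. LOXL4 spreads over a range of 4.42 times, whereas each of the other 7 genes stays within 1.36 to 1.68 times.

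LOXL4 was the member that varied most between groups. In eGFP control cells it was at 2.31, 2.83 and 3.10 CPM, and in no-mCherry cells with DMSO at 3.16, 3.75 and 2.52 CPM. These groups overlapped. In no-mCherry cells with rapamycin it was at 6.05, 5.97 and 6.73 CPM, above every library of the same cells with DMSO. Condensed cells had 5.35, 3.04 and 4.50 CPM, where the first replicate held 111 reads and the others 55 and 70. Diffuse cells had 8.71, 10.2 and 8.95 CPM, the highest of the 15 libraries. Depth behind these values was small, with 37 to 226 reads of LOXL4 per library.

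The group means of LOXL4 were 2.75 ± 0.401 CPM (SD, n = 3) in eGFP control cells, 3.14 ± 0.619 in no-mCherry cells with DMSO, 4.30 ± 1.17 in condensed cells, 6.25 ± 0.415 in no-mCherry cells with rapamycin and 9.29 ± 0.813 in diffuse cells. In this order the neighbours overlapped up to condensed cells, and from there each group lay above the one before it. On the log2 scale the difference between rapamycin and DMSO was 1.11 (standard error 0.198, 95% interval 0.697 to 1.52) in SPARK-OFF cells, which is 2.15 times. In no-mCherry cells it was 0.99 (standard error 0.212, 95% interval 0.548 to 1.43), which is 1.98 times. The members were chosen by these differences, which use LOXL4 in every group but eGFP, so LOXL4 is described and not tested here or in any other comparison. The response in SPARK-OFF cells exceeded that in no-mCherry cells by 0.12 on the log2 scale. The standard error of this difference was not computed, and nothing is read from it.

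LOXL4 made up a larger part of the oxidase mRNA in the rapamycin groups. Its share of the summed CPM per kb of the 5 oxidases was 5.66% ± 0.892 (SD, n = 3) in eGFP control cells, 7.58% ± 1.36 in no-mCherry cells with DMSO and 9.75% ± 1.95 in condensed cells. It was 12.6% ± 0.519 in no-mCherry cells with rapamycin and 18.5% ± 1.03 in diffuse cells. The shares with rapamycin lay above all shares with DMSO. These shares use the LOXL4 values by which the families were chosen, so they are a description and nothing is read from their order.

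**Figure D2:**
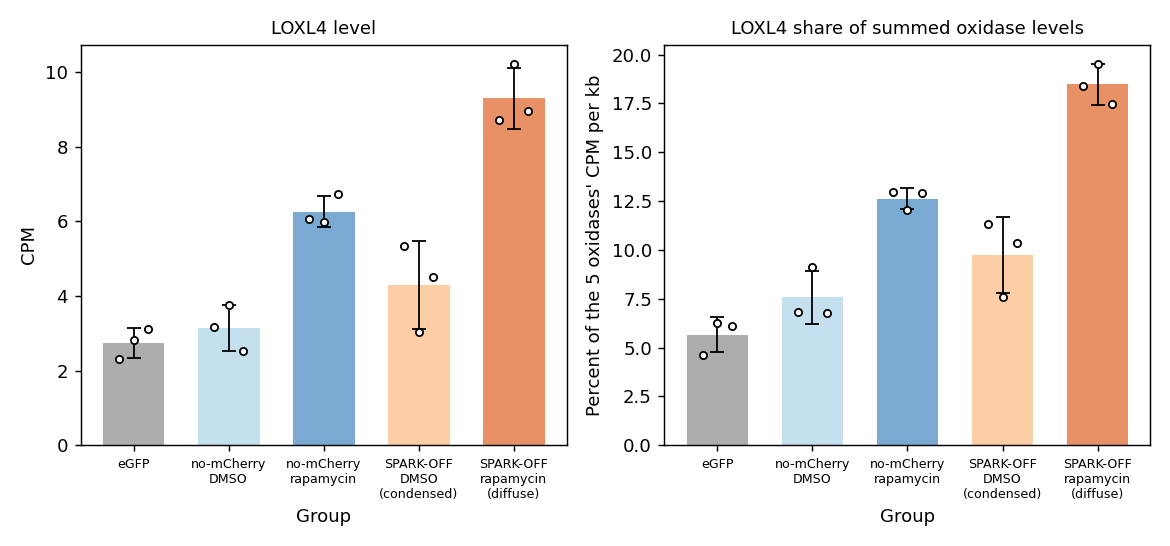
LOXL4 in CPM (left) and as a percent of the summed CPM per kb of the 5 oxidases (right) in each group, with bars for the mean, error bars for the SD of 3 libraries and circles for the libraries. Diffuse cells are highest in both, at 9.29 CPM and 18.5%, and the 3 condensed libraries spread from 3.04 to 5.35 CPM.

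Few genes of the table were called between rapamycin and DMSO. At an adjusted p under 0.05 (edgeR quasi-likelihood test, Benjamini-Hochberg over all genes tested), 0.13% of genes were called between diffuse and condensed cells, 7 higher and 17 lower, and 1.62% between rapamycin and DMSO in no-mCherry cells, 83 higher and 215 lower. These counts depended on the fit. In no-mCherry cells the 298 calls became 2 when the comparison was fitted on its own groups and 760 with DESeq2. Between diffuse and condensed cells the 24 became 63 and 68. In this fit 1 gene was called higher in both comparisons and 0 genes were called lower in both, with 1 called lower in both by DESeq2. A rise of LOXL4 in both lines is the pattern by which the families were chosen. No call of LOXL4 is therefore given, and nothing is read from these counts. The number of genes called higher in both was 4 without the filter on low counts and 5 with DESeq2. It was 0 when each comparison was fitted on its own groups, and also 0 when any of 7 single libraries of the 12 compared was left out.

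The other 7 members showed small rapamycin differences, which are also given as a description. Between diffuse and condensed cells they ran from -0.04 (PLOD2) to 0.15 (LOXL2) on the log2 scale, and in no-mCherry cells from -0.14 (PLOD3) to 0.27 (LOXL1). LOXL3 differed by 0.26 (standard error 0.143) in no-mCherry cells and by 0.01 (standard error 0.143) in SPARK-OFF cells. LOXL2 was the only one of the 7 whose libraries did not overlap between diffuse (10.97 to 11.5 CPM) and condensed cells (10.03 to 10.3 CPM), and in no-mCherry cells the libraries of all 7 overlapped. The share of all genes tested that separate in this way was not computed, so nothing is read from these counts. The median over these 7 genes was 0.08 between diffuse and condensed cells and 0.03 in no-mCherry cells, beside -0.01 and -0.00088 over all genes tested.

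**Figure D3:**
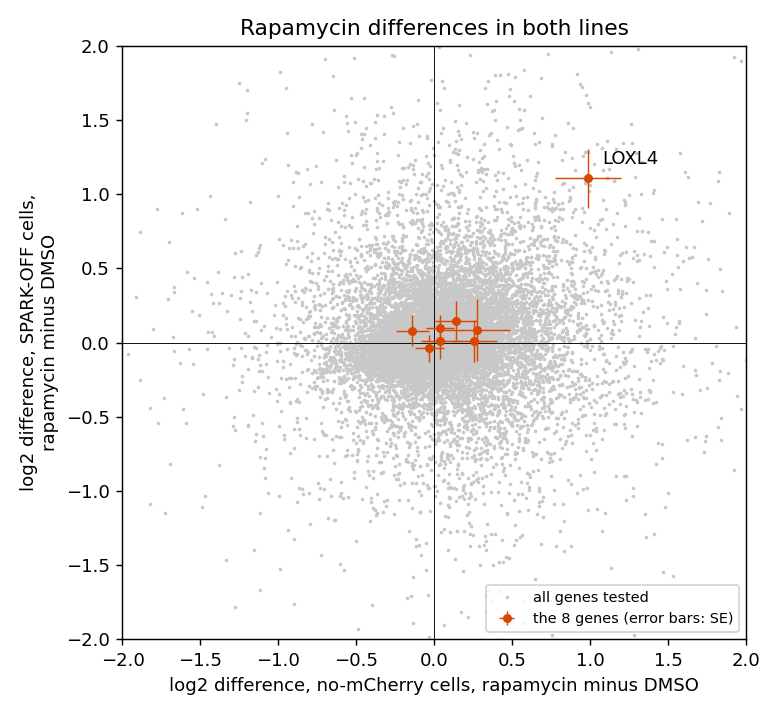
Log2 difference between rapamycin and DMSO in no-mCherry cells (x axis) and SPARK-OFF cells (y axis) for all genes tested (grey) and the 8 genes (orange, error bars for the standard error), with 69 genes outside the plotted range. LOXL4 lies at 0.99 and 1.11, and the other 7 genes lie near 0 on both axes.

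Against eGFP control cells, the question is how the families stand in cells that carry the fusion. In condensed cells 1 of the 7 members other than LOXL4 was called, where 27.1% of all genes tested were, so that the members were called no more often than genes at large. LOXL4 is given as a description: it was higher by 0.65 on the log2 scale (95% interval 0.187 to 1.11), and 1 condensed library, at 3.04 CPM, lay within the eGFP range.

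PLOD1, the lysyl hydroxylase of the collagen helix, was the member called in condensed cells, and it was lower. It was at 75.7, 80.6 and 79.6 CPM in eGFP control cells and at 67.2, 60.7 and 65.8 CPM in condensed cells, with no overlap. The log2 difference was -0.28 (standard error 0.0904, adjusted p = 0.0226, edgeR). It was not called without eGFP replicate 2 (adjusted p = 0.0822, edgeR) or 3 (0.0668), without condensed replicate 2 (0.0955) or 3 (0.0511), or without the filter on low counts (0.0776), where it ran from -0.24 to -0.30.

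The other 6 members tested were not called in condensed cells. Of the 7, 3 had an unadjusted p under 0.05, a level that was not counted over all genes. LOX differed by -0.27 (95% interval -0.517 to -0.0148, adjusted p = 0.108, edgeR) and PLOD3 by -0.24 (95% interval -0.453 to -0.0200, adjusted p = 0.0973, edgeR). For both, and for LOXL2, the condensed libraries lay below all eGFP libraries, a separation that was not counted over all genes. PLOD2 was at 106 ± 1.49 CPM (SD, n = 3) in condensed and 107 ± 7.92 CPM in eGFP control cells, a difference of -0.01 with a 95% interval of -0.197 to 0.184. LOXL1 had the widest interval, from -0.584 to 0.292, at 62 to 138 reads per SPARK-OFF library.

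In diffuse cells 0 of 7 members were called by edgeR, where 23.9% of all genes tested were, and LOX and PLOD1 had an unadjusted p under 0.05. DESeq2 called 0 of the 7 as well. LOX was at 13.1 to 14.6 CPM in diffuse and 14.8 to 18.1 CPM in eGFP control cells (log2 difference -0.25, adjusted p = 0.134, edgeR). PLOD1 was at 66.7 to 71.1 CPM in diffuse cells (-0.19, adjusted p = 0.137, edgeR). LOXL4 was higher by 1.76 (95% interval 1.32 to 2.20), again as a description.

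The no-mCherry cells with DMSO had 1 of 7 members called against eGFP control cells, where 13.5% of all genes tested were. This was PLOD1, at 61.9, 66.0 and 54.2 CPM, below every eGFP library (log2 difference -0.37, standard error 0.0907, adjusted p = 0.0103, edgeR). The lowest of these values came from the third replicate, and the call held without it but not in a fit of these 2 groups alone (adjusted p = 0.0862, edgeR). LOXL2 differed by -0.31 (95% interval -0.591 to -0.0367, adjusted p = 0.119, edgeR). Its libraries of 8.65 to 10.2 CPM lay below the eGFP range of 10.6 to 12.3 CPM, a separation that was not counted over all genes. LOXL4 was higher by 0.20 (95% interval -0.281 to 0.676) as a description.

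With rapamycin, no-mCherry cells had 2 of 7 members called against eGFP control cells, both lower, where 16.4% of all genes tested were. PLOD1 was at 65.7, 57.6 and 63.5 CPM (log2 difference -0.34, standard error 0.0904, adjusted p = 0.0132, edgeR). PLOD3 was at 43.2, 37.6 and 36.2 CPM, below 44.5, 49.3 and 52.7 CPM in eGFP control cells (-0.33, standard error 0.105, adjusted p = 0.0360, edgeR). PLOD1 was not called without eGFP replicate 2 (adjusted p = 0.0613, edgeR), rapamycin replicate 2 (0.0866) or the filter (0.0530). PLOD3 was not called without eGFP replicate 2 (adjusted p = 0.106, edgeR) or 3 (0.159), rapamycin replicate 2 (0.127) or 3 (0.156), or the filter (0.0899). LOXL4 was higher by 1.19 (95% interval 0.736 to 1.63), also as a description.

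Across the 4 comparisons with eGFP control cells, which share the eGFP libraries, PLOD1 was called lower in 3. In diffuse cells it was not called (adjusted p = 0.137, edgeR). Its libraries lay below the eGFP libraries there too, a separation that was not counted over all genes, so nothing is read from it. The median log2 difference of the 7 members without LOXL4 was -0.24 in condensed cells, -0.16 in diffuse cells, -0.27 in no-mCherry cells with DMSO and -0.15 with rapamycin. Over all genes tested the 4 medians were between 0.00446 and 0.00970. Differences of the members other than LOXL4 in these comparisons lay between -0.37 and 0.14.

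**Figure D4:**
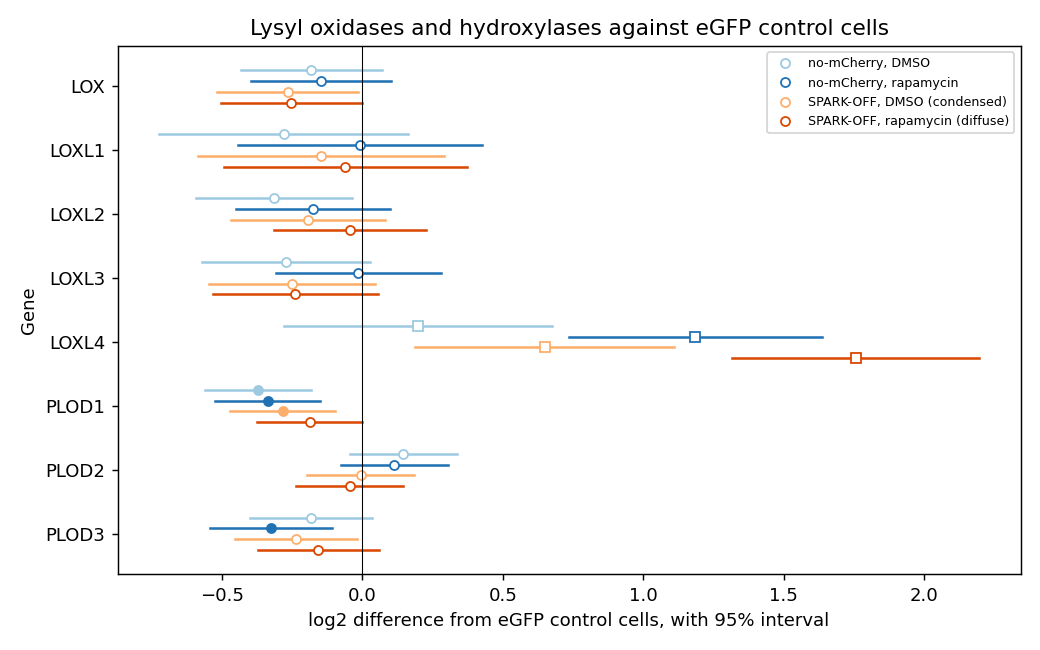
Log2 difference of each gene from eGFP control cells in the 4 other groups, with 95% intervals, where filled circles were called at an adjusted p under 0.05, open circles were not, and squares (LOXL4) were not tested. LOXL4 reaches 1.76 in diffuse cells, and the other genes lie between -0.37 and 0.14.

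SPARK-OFF cells were also set against no-mCherry cells under the same agent, which asks how the lines differ when DMSO or rapamycin is held equal. The lines differ in mCherry and in fusion mRNA, which cannot be told apart. Mean MAML2 was 415 CPM in SPARK-OFF and 220 CPM in no-mCherry cells under DMSO, and 540 and 243 CPM under rapamycin. Per the paper, no-mCherry cells hold condensates too, so the DMSO comparison does not set condensates against none. Under DMSO 0 of 7 members were called by edgeR, where 7.03% of all genes tested were, and 0 had an unadjusted p under 0.05. LOXL4 was higher in condensed cells by 0.45 (95% interval -0.000252 to 0.903) as a description, and the libraries overlapped. Under rapamycin 0 of 7 members were called, where 14% of all genes tested were, and 0 had an unadjusted p under 0.05. PLOD1 libraries were higher without overlap under rapamycin (0.15, 95% interval -0.0372 to 0.337), and those of PLOD2 (-0.16, 95% interval -0.348 to 0.0320) and LOXL3 (-0.22, 95% interval -0.516 to 0.0686) were lower without overlap. The share of all genes tested that separate in this way was not computed, so nothing is read from it. LOXL4 was higher in diffuse cells by 0.57 (95% interval 0.174 to 0.968), likewise as a description. DESeq2 also called 0 members in both of these comparisons.

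Other genes were read from lists chosen with earlier results of these data known. The lists cover collagen and elastic fibre assembly, copper supply, the hypoxia response and fibroblast markers, and 72 of their 79 genes were tested. In condensed against eGFP control cells, 13 were higher and 28 lower, which is 56.9% beside the 27.1% of all genes. Among collagen hydroxylation, folding and export genes, 3 of 19 were higher and 8 lower, with a median log2 difference of -0.22 beside 0.00446 over all genes tested. SERPINH1, the collagen chaperone, rose from 99.5 ± 6.54 to 135 ± 5.63 CPM (SD, n = 3), and P3H2, a prolyl hydroxylase, from 1.16 ± 0.0906 to 2.69 ± 0.106 CPM. FKBP10, a prolyl isomerase that assists lysyl hydroxylation of collagen, fell from 353 ± 11.5 to 185 ± 10.4 CPM (log2 difference -0.93, adjusted p = 4.1e-08, edgeR). Of 10 procollagen processing genes, 1 was higher and 5 lower, with a median of -0.46, the N-proteinase ADAMTS2 at -1.09 and the C-proteinase TLL1 at 0.96.

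The collagen substrates of both families held the largest increase on the lists, COL5A3. Of 10 fibrillar collagen genes, 6 were higher and 3 lower in condensed than in eGFP control cells, with a median log2 difference of 0.91. COL5A3 went from 0.213 ± 0.159 to 10.4 ± 1.92 CPM (SD, n = 3) and COL11A1 from 0.145 ± 0.0281 to 1.14 ± 0.269 CPM. COL1A2 had 0 reads in the eGFP libraries and 15 in the condensed ones, at least 4.42-fold higher against a floor of 3 reads over the group. COL27A1 fell by 1.08 and COL5A1 by 0.92 on the log2 scale. Of 15 elastic fibre substrates and partners, 1 was higher, POSTN, a matricellular protein (4.12), and 6 were lower, FBLN2 (-1.03) and FN1 (-0.84) with the largest decreases and a median of -0.42. ELN, the gene of elastin, had 0 to 7 reads per library and was not tested.

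Of 5 copper supply genes tested, 1 was called in condensed cells, the copper exporter ATP7B (-0.49), where 27.1% of all genes were, and their median was -0.10. LOX and PLOD2 are known targets of hypoxia-inducible factors, and of 9 other hypoxia response genes 0 were higher and 5 lower, with a median of -0.52, and BHLHE40 at -1.23 and NDRG1 at -0.66. Of 6 fibroblast markers tested, DCN, LUM and COL1A2 were higher and COL1A1 lower, with a median of 1.04. The summed level of all 8 markers on that list was 29.6 to 39.0 CPM in eGFP control cells and 27.1 to 28.8 CPM in condensed cells. THY1 and FAP had at most 6 and 4 reads in any library, and in eGFP control cells THY1, FAP and COL1A2 were at 0. In bulk RNA, more cells that express a gene and more RNA per cell cannot be told apart.

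**Figure D5:**
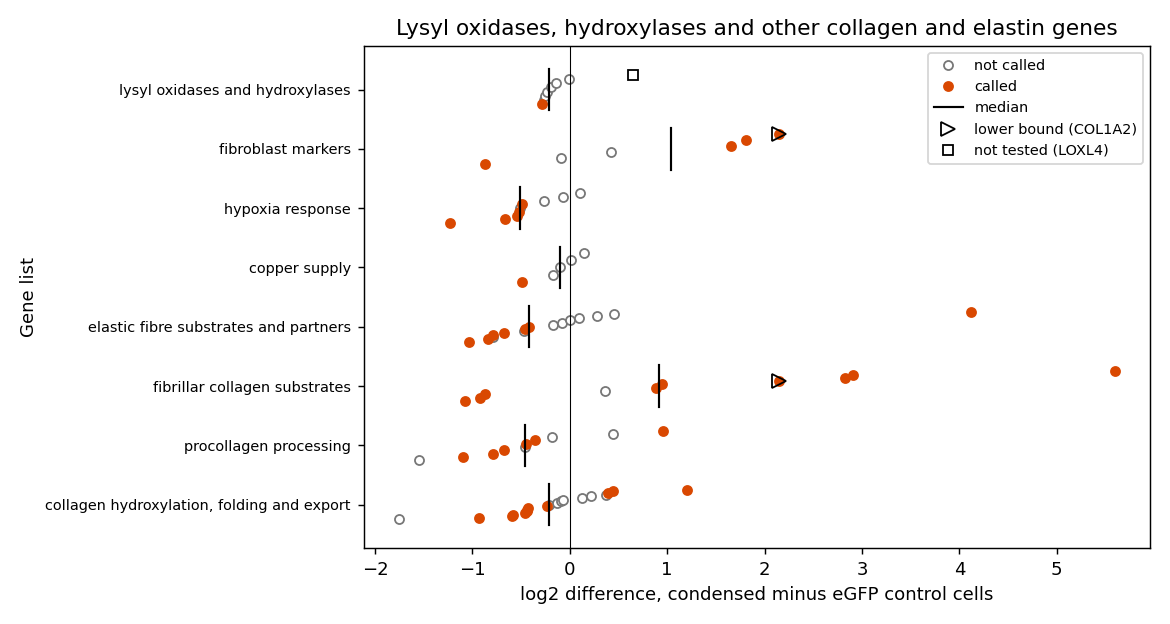
Log2 difference between condensed and eGFP control cells for the 8 genes (top row) and for each tested gene of the 7 lists, with filled points called at an adjusted p under 0.05, black lines at the medians (LOXL4 included in the top row), a square for LOXL4, which was not tested, and an arrow where COL1A2 is drawn at its lower bound. The fibrillar collagens reach 5.60 (COL5A3), whereas the lysyl oxidases and hydroxylases stay between -0.28 and 0.65.

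The same lists were read in the other comparisons. Against eGFP control cells, 12 of the 72 genes were higher and 25 lower in diffuse cells (51.4% called, beside 23.9% of all genes), 5 and 16 in no-mCherry cells with DMSO (29.2%, beside 13.5%), and 5 and 15 with rapamycin (27.8%, beside 16.4%). COL5A3 was at 19.5 ± 3.92 CPM (SD, n = 3) in diffuse cells, 5.27 ± 0.787 in no-mCherry cells with DMSO and 6.45 ± 1.45 with rapamycin, and it was called higher in all 3. Between the lines, 9 were higher and 5 lower in SPARK-OFF cells under DMSO (19.4% called, beside 7.03% of all genes), among them COL3A1 (1.29), TLL1 (0.92) and FKBP10 (-0.52). Under rapamycin 8 were higher and 8 lower (22.2%, beside 14%). The copper importer SLC31A1 was higher in SPARK-OFF than in no-mCherry cells, both with rapamycin (0.29, adjusted p = 0.0397, edgeR). Between diffuse and condensed cells 0 of the 72 were called by edgeR and 2 by DESeq2. At an unadjusted p under 0.05 (edgeR) there were 7, a level that was not counted over all genes. In no-mCherry cells 1 (1.39%, beside 1.62% of all genes) was called between rapamycin and DMSO, NDRG1 (0.35, adjusted p = 0.0472, edgeR), and 0 were called in every alternative other than DESeq2, which called 3.

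The 5 genes whose log2 CPM followed LOXL4 most closely over the 15 libraries were KLF10, BAMBI, RPRM, NR3C1 and NXNL2, with Pearson's r of 0.935, 0.913, 0.883, 0.876 and 0.873. They were taken as the highest of all genes with a symbol and a mean of at least 1 CPM, and the libraries share their lines and agents, so the coefficients describe the likeness and are not tested. KLF10, a zinc finger factor induced by TGF-beta, was at 33.8 CPM in condensed and 47.4 CPM in diffuse cells, and at 31.7 and 39.9 CPM in no-mCherry cells with DMSO and rapamycin. BAMBI, a decoy receptor of the TGF-beta family, went from 23.0 to 27.0 CPM and from 20.5 to 25.4 CPM. NR3C1, the glucocorticoid receptor, had 58.1 and 74.3 CPM in condensed and diffuse cells and 43.2 CPM in eGFP control cells. RPRM, a gene induced by p53, was at 16.4 CPM in diffuse and 6.41 CPM in eGFP control cells, and NXNL2, a thioredoxin-like gene, at 2.25 and 0.231 CPM. The other 7 members had r with LOXL4 from -0.337 (LOX) to 0.251 (LOXL1).

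Whether the counting used strand is not given in the sources used here, so reads in shared exons cannot always be assigned. LOXL3 shares 936 bases of its exons (20.7%) with HTRA2 on the other strand and 4.78% with DOK1, and HTRA2 was at 36.7 to 41.6 CPM as a group mean, above LOXL3. LOXL1 shares 335 bases (9.21%) with LOXL1-AS1, whose group means of 7.47 to 8.96 CPM exceeded those of LOXL1 (4.33 to 5.25 CPM). LOXL3 and LOXL1 have the largest shared parts of the 8, and their values are uncertain to that extent. LOXL4 shares 152 bases (4.23%) with the antisense RNA ENSG00000230928, which had 0 to 10 reads per library against 37 to 226 of LOXL4. LOX shares 2.47% of its exons with SRFBP1, PLOD3 1.8% with ZNHIT1, and LOXL2 2.97% with LOXL2-AS1 and 2.01% with ENTPD4, whereas PLOD2 shared 0 exonic bases with the 3 RNAs inside it and PLOD1 overlapped no annotated gene.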

How the data were processed

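The deposited table holds raw counts per gene for 15 libraries, made by the authors without normalization. Per the study's methods, fastp was used for trimming and STAR for alignment to hg38, and the submitters' processing notes name HTSeq. Their versions, the annotation and the strand setting are not given in the sources used. The families, gene lists and tests were chosen with earlier results of these data known.

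The analysis used edgeR 4.0.16 under R 4.3.3: filterByExpr over the 5 groups kept 18391 of 61533 genes, libraries were scaled by TMM (factors 0.901 to 1.05), and 1 quasi-likelihood fit over all 15 libraries gave every comparison. Genes were called at a Benjamini-Hochberg adjusted p under 0.05 over all genes tested. Shares over all genes were counted at that level only, not at an unadjusted p or for libraries without overlap. Standard errors and 95% intervals are those of the fitted coefficients. CPM use the scaled library sizes, and levels per kb use the canonical transcript of GENCODE 44. Depth per library was 14720387 to 24797509 counts, and the common biological coefficient of variation was 0.111. No member was tested between rapamycin and DMSO within a line, and LOXL4 was tested nowhere, since its values chose the families, so members were counted over 7 and not, as planned, over 8 under DMSO. Other genes were tested in every comparison.

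Named were the 8 members, per list and comparison at most the 2 largest increases and 2 largest decreases among called genes with at least 1 CPM, the 5 genes most like LOXL4, and genes that overlap a member. COL1A2, and DCN, LUM and COL1A1 as counts of 5 or fewer, were named after their values were seen. Same-numbered libraries did not deviate together (correlations over 0.1 in 5 of 24 pairs), so replicate numbers were not used as pairs. Alternatives were DESeq2 1.42.0, its size factors, no filter, a replicate block, only the groups compared, the study's thresholds, each library left out, and, chosen after seeing the data, exon-union lengths. The steps were tested on simulated data.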

Additional observations from a re-analysis of the deposited data

How the results depend on the processing

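The LOXL4 rapamycin differences were positive in all 22 recomputations, between 0.846 and 1.31 on the log2 scale. The families were chosen by these differences in these libraries, so nothing is read from their sign. Of 462 recomputed values of the other members in the tested comparisons, 425 kept direction and side of the threshold, 14 lost a call, 0 gained one and 23 changed sign, all of the latter near 0 and not called. The causes were not tested unless a setting itself has fewer samples or tests more genes.

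Counts of members called moved as follows. In condensed against eGFP control cells the 1 became 0 without the filter, 0 at the study's thresholds, and 0 to 1 when a library was left out. In no-mCherry cells with DMSO the 1 became 0 with only the groups compared and 0 at the study's thresholds. In no-mCherry cells with rapamycin the 2 became 0 without the filter, 0 at the study's thresholds and 0 to 2 when a library was left out.

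Counts of list genes called moved likewise. In no-mCherry cells with DMSO against eGFP, 21 became 7 with only the groups compared and 10 to 24 when a library was left out (10 without eGFP replicate 2, 12 without eGFP replicate 3 and 11 without no-mCherry replicate 3). With rapamycin, 20 became 11 to 20 (13 without rapamycin replicate 2 and 11 without replicate 3). Between the lines under DMSO, 14 became 9 with only the groups compared. The count ran from 11 to 20 when a library was left out (20 without no-mCherry replicate 3). Between diffuse and condensed cells, 0 became 1 without the filter, 1 with only the groups compared and 2 with DESeq2. Between rapamycin and DMSO in no-mCherry cells, 1 became 3 with DESeq2 and 0 with DESeq2's size factors, without the filter, with only the groups compared and without any library (0 to 0).

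With the replicate block, the list genes called were 1 in place of 0 between diffuse and condensed cells and 0 in place of 1 in no-mCherry cells. It changed no other count by over 1.5 times. The numbers do not pair the samples (correlations of -0.206 to 0.168).

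Sign changes were these. PLOD2 in condensed cells was 0.00339 with DESeq2's size factors and 0.00348 with DESeq2, and -0.0503 to 0.0496 with a library left out. In no-mCherry cells with rapamycin, LOXL1 was 0.0125 without the filter and 0.00683 with only the groups compared, and LOXL3 was 0.00567 without the filter. With a library left out, LOXL1 ran from -0.354 to 0.000595 in condensed, -0.152 to 0.0832 in diffuse and -0.125 to 0.137 in no-mCherry cells with rapamycin against eGFP. LOXL3 ran from -0.130 to 0.0804 in the last, and PLOD2 from -0.0904 to 0.0120 in diffuse cells. Between the lines, LOXL1 ran from -0.0731 to 0.260 under DMSO and -0.162 to 0.0660 under rapamycin, LOXL3 from -0.111 to 0.120 and PLOD3 from -0.145 to 0.0418 under DMSO.

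Over all genes, 24 calls between diffuse and condensed cells became 61 without the filter, 68 with DESeq2 and 63 with only the groups compared, and 298 in no-mCherry cells became 760 with DESeq2 and 2 with only the groups compared. With only the groups compared, 2481 in no-mCherry cells with DMSO against eGFP became 533, 1293 between the lines under DMSO became 455, and 2566 under rapamycin became 3920. Exon-union lengths, chosen after seeing the data, changed the places of PLOD1, PLOD2, PLOD3, LOXL1 and LOXL4 over the 15 libraries, and also those of LOX and LOXL2 within single groups.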
